A study of Homo sapiens with 4 samples.

Results

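To examine how the methionine cycle and the polyamine pathway responded at the RNA level to the loss of lactate dehydrogenase A, 10 genes were followed in RNA-Seq of B-CPAP cells, an established papillary thyroid carcinoma line. They were MAT2A, MAT2B, AHCY, AMD1, SRM, SMS, ODC1, AZIN1, SAT1 and SMOX, all 10 of which stood on a single row each among the 59108 rows of the deposited table. The genes were chosen by name for their place in the pathway and with earlier results of the same libraries known, among them the low MAT2A and ODC1 and the high SAT1 after LDHA knockdown. Their differences between the hairpins are therefore given as a description and not as a test.

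The comparison had 2 groups. The first was 2 libraries of B-CPAP cells carrying a hairpin against LDHA (shLDHA), and the second was 2 libraries of B-CPAP cells carrying a hairpin against GFP (shGFP), which served as the control. The study delivered its LDHA knockdown vectors by lentivirus with puromycin selection. It is not stated whether libraries of a group came from separate cultures, whether the shLDHA libraries share 1 hairpin, or whether the cells were a clone. The spread behind every p-value is that among 4 libraries and could be purely technical. LDHA itself stood at 176 and 168 FPKM (fragments per kilobase, scaled to the sequencing depth) in the shLDHA libraries and at 1186 and 1183 FPKM in the shGFP libraries. Of the thyroid markers, PAX8 was present at 65.7 to 99.4 FPKM, while NKX2-1 and TSHR were listed at 0 in all 4 libraries. Of the epithelial genes, KRT8 and KRT18 were abundant, while KRT19 and EPCAM stood at 0.20 FPKM or less. The leukocyte genes PTPRC and CD3E were listed at 0, and CD14 reached 1.91 FPKM. From the step between low values, the depth was estimated as about 19400000 and 25900000 fragments in the shLDHA libraries and 22500000 and 23600000 fragments in the shGFP libraries. The least covered value of a member, that of AMD1 or MAT2B in shLDHA library 1, then rested on about 290 fragments.

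The methionine cycle makes S-adenosylmethionine, the methyl donor of the cell, from methionine and ATP. After the methyl group has been passed on, the product is split by adenosylhomocysteinase and the homocysteine can be remethylated. A part of the S-adenosylmethionine is decarboxylated and gives its aminopropyl group to putrescine and spermidine, so that both pathways draw on the same metabolite. Ornithine decarboxylase, which makes putrescine, is turned over with the help of antizymes, and its gene is a textbook target of the transcription factor MYC in proliferating cells.

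MAT2A, which encodes the catalytic subunit of methionine adenosyltransferase II and showed the largest difference of the 10 genes, carries in its 3′ UTR the known binding hairpins of METTL16, a methyltransferase that in human cells couples splicing and stability of the MAT2A RNA to the amount of S-adenosylmethionine. The sites are shown because no other member carried the sequence in its 3′ UTR. The nonamers TACAGAGAA and TACAGAAAA, in capitals below, were searched on the sense strand of the 3′ UTR of the reference transcript of MAT2A in GENCODE on GRCh37, and 10 bases stand on either side (5′ to 3′, plus strand).
MAT2A site 1, chr2:85770925-85770953: tggcgtaggcTACAGAGAAgccttcaagc
MAT2A site 2, chr2:85771712-85771740: tgtgatgtcaTACAGAGAAgtcacagggc
MAT2A site 3, chr2:85771897-85771925: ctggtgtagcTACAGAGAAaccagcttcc
MAT2A site 4, chr2:85772012-85772040: atggcgtaagTACAGAGAAgccatcacct
MAT2A site 5, chr2:85772127-85772155: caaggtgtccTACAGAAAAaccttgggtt
MAT2A site 6, chr2:85772235-85772263: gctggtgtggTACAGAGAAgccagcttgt
There were 6 matches in the 1509 bases of this UTR, 5 of TACAGAGAA and 1 of TACAGAAAA, and in each the flanks held complementary stretches of 4 to 6 bases. Of 18642 reference transcripts with a 3′ UTR, 845 (4.53%) held at least 1 match and only that of MAT2A held more than 3. The other 9 members held 0. These matches describe the sequence and do not show that a site was used in B-CPAP cells.

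MAT2A was lower in both shLDHA libraries than in both shGFP libraries. As deposited, it stood at 14.2 and 10.4 FPKM in the shLDHA libraries, against 95.8 and 97.2 FPKM in the shGFP libraries. These values correspond to about 700 and 690 fragments with shLDHA and about 5430 and 5780 with shGFP. Neither group came near the other. After scaling the libraries by the trimmed mean of M values (TMM), MAT2A averaged 13.8 ± 1.60 FPKM in shLDHA cells and 85.8 ± 1.79 FPKM in shGFP cells (SD, n = 2 each). The log2 fold change was -2.64 (standard error 0.11), or 6.24-fold lower. It was the 50th lowest of the 13291 rows tested, and LDHA, the target of the hairpin, was the 62nd lowest. In a bulk library, fewer cells with an RNA and less of that RNA in each cell cannot be told apart. The gene lies on chromosome 2 of GRCh37 from 85766291 to 85772404.

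MAT2B encodes the regulatory subunit that binds MAT2A. It stood at 8.39 and 9.19 FPKM as deposited in the shLDHA libraries and at 12.0 and 12.3 FPKM in the shGFP libraries. After TMM scaling the groups overlapped, at 8.77 and 11.1 FPKM with shLDHA and 10.6 and 11.0 FPKM with shGFP, and the log2 fold change was -0.13 (standard error 0.15). Within a library, a ratio of 2 genes does not depend on the scaling between libraries. The ratio of MAT2A to MAT2B was 1.70 and 1.14 in the shLDHA libraries and 7.96 and 7.90 in the shGFP libraries, so that the RNA of the catalytic subunit was still the more abundant one, by a smaller margin.

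AHCY, the hydrolase that removes S-adenosylhomocysteine, was the most abundant member in both groups. As deposited it stood at 555 and 417 FPKM in the shLDHA libraries and at 430.25 and 429.83 FPKM in the shGFP libraries, so that the shLDHA values lay on either side of the shGFP values. After TMM scaling it averaged 542 ± 53.8 FPKM with shLDHA and 382 ± 3.73 FPKM with shGFP (SD, n = 2 each), and the log2 fold change was 0.50 (standard error 0.10). The size of this difference depended on the scaling, and with totals made equal between libraries (TPM) the log2 fold change was 0.0054. The ratio of MAT2A to AHCY was 0.0257 and 0.0250 in the shLDHA libraries against 0.223 and 0.226 in the shGFP libraries, 8.85-fold lower in shLDHA cells.

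**Figure D1:**
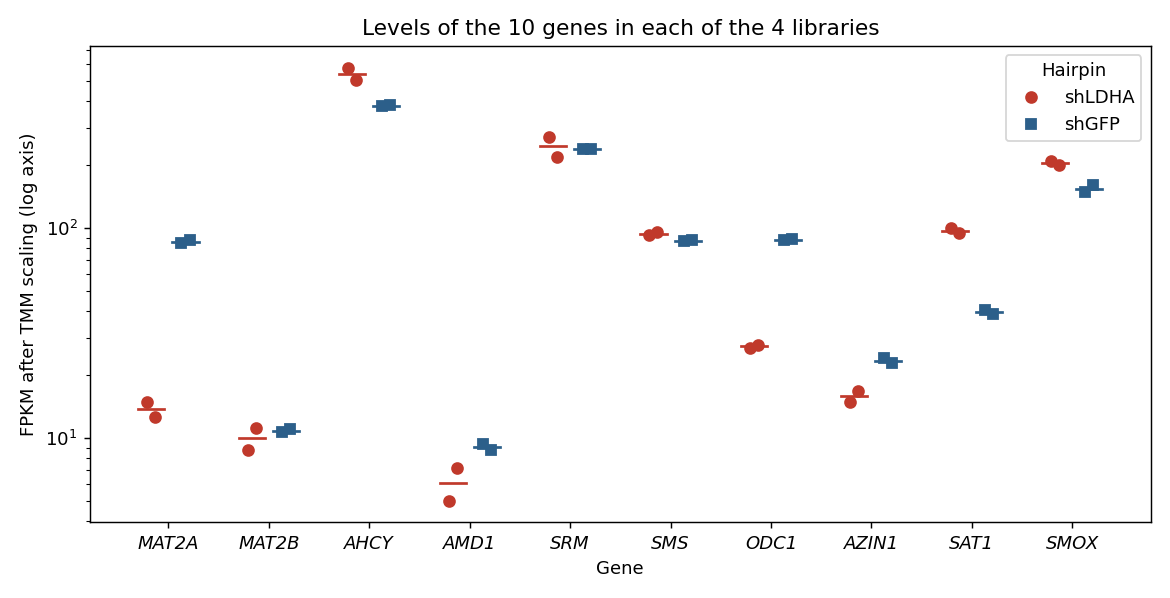
FPKM after TMM scaling (log axis) of the 10 genes in each library, with shLDHA as circles on the left and shGFP as squares on the right of each gene and a line at the mean of the 2 libraries. MAT2A (13.8 against 85.8) and ODC1 (27.3 against 88.0) are lower with shLDHA, SAT1 (97.0 against 39.6) is higher, and the libraries of MAT2B and SRM overlap between the groups.

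ODC1, the gene of ornithine decarboxylase and the first enzyme of polyamine synthesis, was the other member with a large negative difference. It stood at 25.7 and 23.0 FPKM as deposited in the shLDHA libraries, against 99.2 and 98.6 FPKM in the shGFP libraries. After TMM scaling the mean was 27.3 ± 0.656 FPKM with shLDHA and 88.0 ± 0.560 FPKM with shGFP (SD, n = 2 each), and the log2 fold change was -1.69 (standard error 0.07). The replicates of each group were close to each other, and the groups were 3.22-fold apart. ODC1 was the 154th lowest of the rows tested.

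AZIN1 encodes antizyme inhibitor 1, a protein related to ornithine decarboxylase that binds antizyme and so spares the enzyme. It stood at 14.1 and 13.8 FPKM as deposited in the shLDHA libraries and at 27.1 and 25.3 FPKM in the shGFP libraries. After TMM scaling the log2 fold change was -0.57 (standard error 0.10), and both shLDHA libraries stayed below both shGFP libraries. Over the reference transcripts the log2 fold changes moved with length, with a median of 0.54 in the tenth of genes with the shortest transcripts and of -0.43 in the tenth with the longest. The tenth that holds AZIN1 had a median of -0.19, and the part of length in the difference of AZIN1 was not tested beyond the fit with length offsets, which gave -0.43. The antisense gene AZIN1-AS1 stood at 6.62 and 5.77 FPKM in the shLDHA libraries, against 1.94 and 2.75 FPKM in the shGFP libraries, and rose (log2 fold change 1.71, limma adjusted p = 0.0126). The counting is not stated to use strand, so reads of AZIN1 and of AZIN1-AS1 may not have been told apart where the genes overlap.

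OAZ1, the gene of antizyme 1, is no member but is the partner of both proteins. The ratio of ODC1 to OAZ1 within a library was 0.0116 in both shLDHA libraries, against 0.0573 and 0.0545 in the shGFP libraries. The ratio of AZIN1 to OAZ1 was 0.00637 and 0.00699 in the shLDHA libraries and 0.0157 and 0.0140 in the shGFP libraries. Both ratios were lower with shLDHA, by more than the libraries of a group differed. They were not corrected for the trend with length, and the reference transcripts have 2476 (ODC1), 4196 (AZIN1) and 1148 bases (OAZ1). With length offsets the log2 fold changes were -1.76 for ODC1, -0.43 for AZIN1 and 0.14 for OAZ1. The part of length in the ratios was not tested.

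AMD1 encodes adenosylmethionine decarboxylase, which makes the aminopropyl donor, and had the lowest level of the members. It stood at 4.81 and 5.97 FPKM as deposited in the shLDHA libraries and at 10.5 and 9.73 FPKM in the shGFP libraries. Both shLDHA libraries were below both shGFP libraries, but they lay further apart after TMM scaling, at 5.03 and 7.22 FPKM, than the shGFP libraries, at 9.30 and 8.72 FPKM. The log2 fold change was -0.57 (standard error 0.20), the same size as that of AZIN1 with a larger error. AMD1 was not called with TMM scaling (limma adjusted p = 0.0988) or with length offsets (-0.51, limma adjusted p = 0.131). It was called lower as deposited (-0.91), where the median of all genes lay at -0.33.

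SRM and SMS, the aminopropyltransferases that make spermidine and spermine, differed little with TMM scaling. SRM stood at 259 and 181 FPKM as deposited in the shLDHA libraries and at 269 and 266 FPKM in the shGFP libraries, and after TMM scaling the log2 fold change was 0.03 (standard error 0.12). The 2 shLDHA libraries stood on either side of the shGFP libraries after scaling. SMS stood at 88.8 and 78.7 FPKM as deposited in the shLDHA libraries and at 98.0 and 97.6 FPKM in the shGFP libraries, with a log2 fold change of 0.11 after scaling (standard error 0.07). As deposited the log2 fold changes were -0.31 for SRM and -0.23 for SMS, and with length offsets -0.38 and -0.16. In TPM they were -0.46 and -0.38, where SMS was called lower (limma adjusted p = 0.0496). The ratio of SMS to SRM was 0.342 and 0.436 in the shLDHA libraries and 0.364 and 0.367 in the shGFP libraries, and the groups overlapped. The ratio of AMD1 to SRM was 0.0185 and 0.0330 with shLDHA and 0.0391 and 0.0366 with shGFP. It was not corrected for the trend with length, and the reference transcripts have 3423 (AMD1) and 1260 bases (SRM). With length offsets the log2 fold change was -0.51 for AMD1 and -0.38 for SRM, and the part of length in the ratio was not tested.

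**Figure D2:**
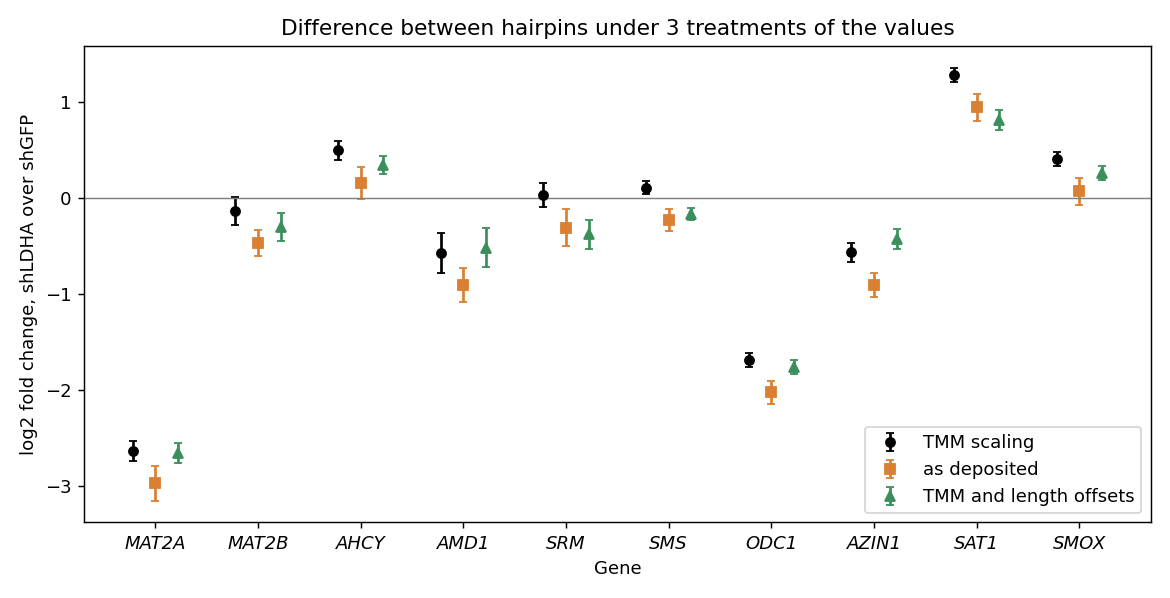
Log2 fold change of shLDHA over shGFP for each gene (vertical axis, with standard errors) with TMM scaling, as deposited, and with TMM scaling and offsets for transcript length. MAT2A, MAT2B, ODC1, AMD1 and AZIN1 are below 0 and SAT1, AHCY and SMOX are above 0 under all 3 treatments. AHCY and SMOX come close to 0 as deposited (0.16 and 0.07), and SRM and SMS are above 0 only with TMM scaling alone.

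SAT1 encodes the acetyltransferase that marks spermidine and spermine for oxidation or export, and it had the largest positive difference. It stood at 95.0 and 78.2 FPKM as deposited in the shLDHA libraries, against 45.9 and 43.2 FPKM in the shGFP libraries. After TMM scaling it averaged 97.0 ± 3.37 FPKM in shLDHA cells and 39.6 ± 1.26 FPKM in shGFP cells (SD, n = 2 each), with a log2 difference of 1.29 (standard error 0.07). SAT1 was 2.45-fold higher in shLDHA cells and stood 681st from the top of the rows tested. Its reference transcript of 1049 bases falls in the tenth with the shortest transcripts, whose median log2 fold change was 0.54, and with length offsets the log2 fold change of SAT1 was 0.82 (standard error 0.10).

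SMOX, the gene of spermine oxidase, stood at 199.8 and 165 FPKM as deposited in the shLDHA libraries and at 168 and 178 FPKM in the shGFP libraries, so that the groups overlapped. After TMM scaling SMOX averaged 204 ± 6.60 FPKM with shLDHA and 154 ± 8.15 FPKM with shGFP (SD, n = 2 each), and the log2 fold change was 0.41 (standard error 0.08). As for AHCY, the difference was small as deposited, and in TPM it was -0.08. The ratio of SAT1 to ODC1, of a catabolic to a synthetic gene, was 3.70 and 3.41 in the shLDHA libraries against 0.463 and 0.438 in the shGFP libraries. SAT1 RNA was thus the more abundant of the pair with shLDHA and the less abundant with shGFP, a 7.90-fold difference of the ratios. This ratio was not corrected for the trend with transcript length. With length offsets the log2 fold change was 0.82 for SAT1 and -1.76 for ODC1, and the part of length in the ratio was not tested.

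**Figure D3:**
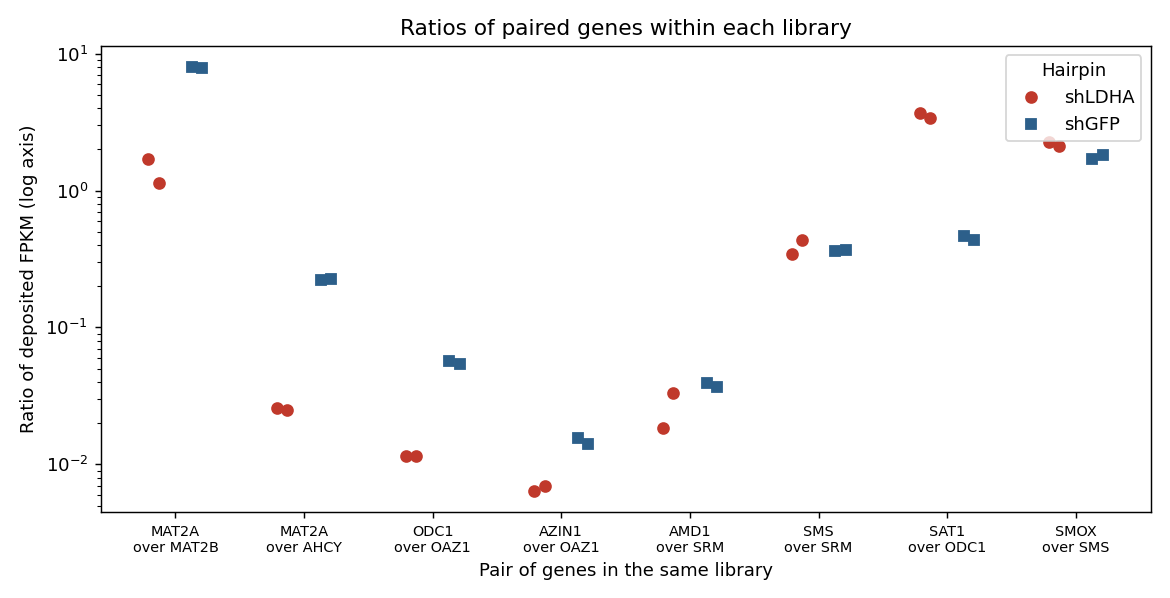
Ratio of the deposited FPKM of 8 pairs of genes within each library (log axis), with shLDHA as circles on the left and shGFP as squares on the right. MAT2A over AHCY, ODC1 over OAZ1 and SAT1 over ODC1 are 8.85-fold lower, 4.83-fold lower and 7.90-fold higher with shLDHA, while the 2 groups overlap for SMS over SRM. The ratios are not corrected for the trend with transcript length.

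In the order of levels per length, the members ran in shLDHA cells from AHCY, SRM and SMOX through SAT1, SMS, ODC1, AZIN1 and MAT2A to MAT2B and AMD1. In shGFP cells the order was AHCY, SRM, SMOX, ODC1, SMS, MAT2A, SAT1, AZIN1, MAT2B and AMD1. The first 3 and the last 2 places were the same in both groups. SAT1 and SMS with shLDHA, AZIN1 and MAT2A with shLDHA, and SMS and MAT2A with shGFP overlapped between their libraries, so their order is not settled. The level of MAT2A was near that of AZIN1 in shLDHA cells, against near that of ODC1 and SMS in shGFP cells.

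In the fit over all rows, 3 members (MAT2A, ODC1 and AZIN1) were called lower and 3 (SAT1, AHCY and SMOX) higher at an adjusted p under 0.05 with limma and Benjamini-Hochberg adjustment, and 4 were not called. Over all 13291 rows tested, 30.9% were called, 13.0% lower and 17.9% higher. Since the members were chosen with this contrast known, nothing is read from their count. The libraries of both groups did not overlap for 8 members after TMM scaling, against 72.5% of all rows, and for 8 members as deposited, against 72.9% of all rows. Without shGFP library 1 or shGFP library 2, limma called 0 of all rows and so none of the members, while 3460 and 3743 rows had an unadjusted p under 0.05. Without shLDHA library 2, AMD1 (-0.83) and SRM (0.19) were called as well. AHCY and SMOX lost their calls as deposited and with length offsets.

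The other genes of these pathways were taken from 10 lists with 48 genes, of which 40 were tested, 12 rose, 6 fell and 22 did not pass. Of all 13291 rows tested, 17.9% were called higher and 13.0% lower. The list genes had a median log2 fold change of 0.14, beside -0.01 over all rows tested. As deposited 7 list genes were called higher and 10 lower, beside 904 and 3114 of all rows. The balance of directions thus depended on the scaling. Of 6 other genes of the methionine cycle, MTR, the methionine synthase, fell at 0.850 and 0.700 FPKM in the shLDHA libraries against 2.39 and 1.90 FPKM in the shGFP libraries (log2 fold change -1.04, limma adjusted p = 0.0361). The MTR call was lost with length offsets, at a log2 fold change of -0.66, with the replicate block (limma adjusted p = 0.0580) and without either shLDHA library (limma adjusted p = 0.0605 and 0.0659 without library 1 and 2). The liver genes MAT1A, BHMT and BHMT2 were listed at 0 in all 4 libraries, so that MAT2A was the only catalytic subunit gene detected.

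Of 6 genes of S-adenosylmethionine use, transport and MAT2A splicing, 3 rose and 1 fell, beside 17.9% of all rows called higher and 13.0% lower. The methyltransferase genes GAMT, of creatine synthesis (log2 fold change 0.93, limma adjusted p = 0.00791), NNMT, of nicotinamide (0.82, limma adjusted p = 0.0119), and PEMT, of phosphatidylcholine synthesis (0.65, limma adjusted p = 0.0281), rose. NNMT stood at 1149 and 1131 FPKM in the shLDHA libraries and at 806 and 828 FPKM in the shGFP libraries, above every member. YTHDC1, a nuclear reader of methylated adenosine, fell (-0.67, limma adjusted p = 0.0272). The GAMT and NNMT calls held at smaller log2 fold changes with length offsets (0.48 and 0.63) and in TPM (0.44 and 0.32). The PEMT and YTHDC1 calls were lost with length offsets. That of PEMT was also lost as deposited and without the variance trend (limma adjusted p = 0.0606). METTL16, named here for its role on the sites shown above and after its values were seen, stood at 3.09 and 3.11 FPKM with shLDHA and 5.46 and 5.54 FPKM with shGFP, a log2 fold change of -0.48 after scaling that did not pass (limma adjusted p = 0.0726). METTL16 was called lower as deposited (-0.81, limma adjusted p = 0.0257) and in TPM (-0.96, limma adjusted p = 0.0142), and had a log2 fold change of -0.21 with length offsets. The transsulfuration genes CBS (0.26) and CTH (0.05) did not pass, though CBS did without shLDHA library 2 (0.35, limma adjusted p = 0.0214). Of 6 genes of the salvage of methylthioadenosine, the by-product of SRM and SMS, ENOPH1 fell (-0.52, limma adjusted p = 0.0373) and 5 did not pass. The ENOPH1 call was lost with the replicate block (limma adjusted p = 0.0581) and without the variance trend (limma adjusted p = 0.0564). It was also lost without shLDHA library 2.

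**Figure D4:**
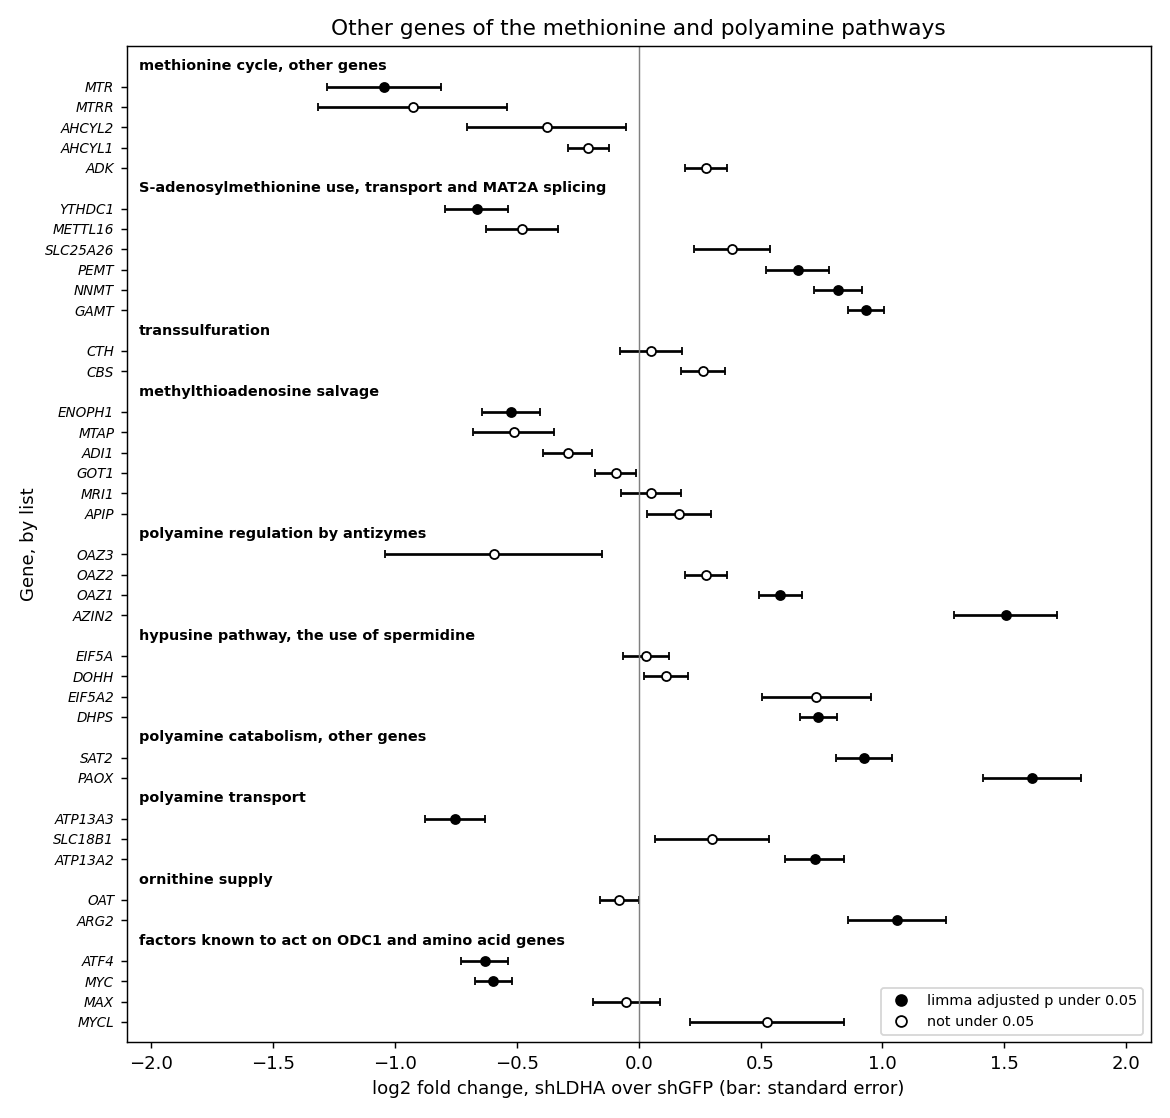
Log2 fold change of shLDHA over shGFP (horizontal axis, bars are standard errors) for 38 of the 40 tested genes of the pathway lists, with filled points at a limma adjusted p under 0.05. ATP13A4 is not drawn because it was listed at 0 in both shGFP libraries, and 1 gene of the methionine cycle list is not shown. PAOX (1.61) and SAT2 (0.92) of the catabolism list are to the right, and MYC (-0.60) and ATF4 (-0.63) are to the left.

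Of 4 tested genes of the antizyme list, 2 rose, the antizyme gene OAZ1 and the antizyme inhibitor gene AZIN2. The antizyme genes OAZ2 and OAZ3 did not pass with TMM scaling. Of 2 genes tested of the catabolism list 2 rose. Over all rows, 17.9% were called higher. OAZ1 rose, at 2218 and 1979 FPKM in the shLDHA libraries against 1731 and 1811 FPKM in the shGFP libraries (log2 fold change 0.58, limma adjusted p = 0.0168), but lost its call as deposited (0.24), in TPM (0.09) and with length offsets (0.14). AZIN2, the second antizyme inhibitor gene, rose, at 27.6 and 24.4 FPKM with shLDHA against 14.1 and 9.31 FPKM with shGFP (log2 fold change 1.51, limma adjusted p = 0.0150), opposite to AZIN1. PAOX, the polyamine oxidase that acts on acetylated polyamines, stood at 4.47 and 3.68 FPKM with shLDHA and 1.85 and 1.38 FPKM with shGFP (log2 fold change 1.61, limma adjusted p = 0.0125), and SAT2, a relative of SAT1, had a log2 fold change of 0.92 (limma adjusted p = 0.0123). The calls of AZIN2, PAOX and SAT2 also held as deposited and with length offsets. With length offsets the log2 fold changes were 1.74 for AZIN2, 1.38 for PAOX and 0.42 for SAT2.

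Of the hypusine genes, DHPS, which transfers part of spermidine to the translation factor eIF5A, rose (log2 fold change 0.74, limma adjusted p = 0.00968, not called as deposited), while EIF5A itself did not pass with TMM scaling, at a log2 fold change of 0.03. EIF5A was called lower with length offsets (-0.37, limma adjusted p = 0.0300) and in TPM (-0.46, limma adjusted p = 0.0215). Among transport genes ATP13A2, a lysosomal polyamine exporter, rose (0.72, limma adjusted p = 0.0205, not called as deposited) and ATP13A3 fell (-0.75, limma adjusted p = 0.0194, not called with length offsets). ATP13A4, a related ATPase, was listed at 0 in both shGFP libraries and stood at 4.69 and 11.1 FPKM in the shLDHA libraries. It passed the limit for testing through the shLDHA libraries alone and is counted among the list genes that rose. ARG2, the mitochondrial arginase that supplies ornithine, rose (1.06, limma adjusted p = 0.0256, not called as deposited). OAT did not pass with TMM scaling and was called lower in TPM. ARG2 lost its call without shLDHA library 1 (limma adjusted p = 0.0533) or library 2 (limma adjusted p = 0.0564). Over the named genes of all lists, PEMT, MTR, ENOPH1 and ARG2 lost their calls with no filter on low values, and PEMT, OAZ1, DHPS, ATP13A2 and ARG2 lost them in TPM.

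MYC fell in shLDHA cells, at 105 and 84.4 FPKM against 185 and 175 FPKM in shGFP cells (log2 fold change -0.60, limma adjusted p = 0.0129). ATF4, a transcription factor of the amino acid response, fell as well, at 302 and 291 FPKM with shLDHA against 561 and 603 FPKM with shGFP (log2 fold change -0.63, limma adjusted p = 0.0170). To set these levels beside the members' promoters, the E-box CACGTG, which MYC and MAX bind and which reads the same on both strands, was searched from 250 bases before to 50 bases after each annotated start in RefSeq on GRCh38.p14. AZIN1 was left out of this search, and SMOX had no entry. Entries were thus used for 8 of the 10 members, with 14 starts. The 2 promoters with a match are shown, with the motif in capitals.
ODC1 second start, chr2:10447963-10448262, minus strand: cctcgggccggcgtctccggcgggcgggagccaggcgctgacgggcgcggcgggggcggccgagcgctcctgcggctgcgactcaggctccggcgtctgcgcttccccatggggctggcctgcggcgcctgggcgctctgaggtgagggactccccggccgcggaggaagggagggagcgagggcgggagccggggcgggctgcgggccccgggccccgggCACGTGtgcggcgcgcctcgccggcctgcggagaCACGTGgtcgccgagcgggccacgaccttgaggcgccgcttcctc
SRM start, chr1:11059969-11060268, minus strand: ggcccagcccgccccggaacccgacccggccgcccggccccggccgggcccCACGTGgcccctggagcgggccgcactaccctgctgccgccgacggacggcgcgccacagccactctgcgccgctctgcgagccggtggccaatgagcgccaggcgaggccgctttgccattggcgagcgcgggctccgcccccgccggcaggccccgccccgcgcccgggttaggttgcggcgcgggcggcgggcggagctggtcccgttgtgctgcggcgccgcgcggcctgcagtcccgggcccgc
The ODC1 window held the motif at -29 and 5 relative to the second annotated start of the gene, and the SRM window held it at -199. The window of the first ODC1 start had no match. Of all 35116 promoters of this length, 7.26% held it at least once and 0.664% 2 times or more. Of all genes with an entry, 8.77% held it in at least 1 promoter. ODC1 was lower with shLDHA, at 25.7 and 23.0 FPKM as deposited against 99.2 and 98.6 FPKM with shGFP. With TMM scaling the log2 fold change was -1.69 for ODC1 and 0.03 for SRM. As deposited it was -2.02 for ODC1 and -0.31 for SRM. With length offsets it was -1.76 for ODC1 and -0.38 for SRM. The part of the motif in these values was not tested. MAT2A, AMD1 and SAT1 had no match in their windows.

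Rows of pseudogenes of the members added little. Of 13 such rows, 9 were listed at 0 in all 4 libraries and the highest value was 0.15 FPKM. Reads that match both a gene and its copy may have been dropped or assigned to either by the counting, which was not tested. ODC1-DT, the gene divergent to ODC1, stood at 0.17 FPKM in both shLDHA libraries and at 0.27 and 0.42 FPKM in the shGFP libraries, below the limit for testing.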

How the data were processed

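Total RNA of 2 shLDHA and 2 shGFP libraries of B-CPAP cells was sequenced. The table deposited by the authors holds FPKM, rounded to 2 decimals, and no read counts. The study's methods name Trim Galore, STAR on hg19, HTSeq with GENCODE and TMM, while HISAT2 and hg38 appear, beside Trim Galore, in the notes on processing of the submitters. It is not stated which of these lies behind the table or which tool divided by length.

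Rows with no gene name (224) and with a name turned into a date (27) were left out. The 13291 rows that reached 0.5 FPKM in 2 or more libraries were tested as log2(FPKM + 0.1) after TMM scaling without weights (30% of M and 5% of A trimmed at each end), with limma (version 3.58.1, R 4.3.3), a variance trend and Benjamini-Hochberg adjustment over all rows. The added 0.1 understates the change of low genes. Standard errors rest on 2 residual degrees of freedom, moderated over genes. With 2 libraries against 2, single genes were given no permutation test. The working of the fit was checked on simulated data that had no trend with transcript length, so the check gives no error rate for these libraries. Depth was estimated from genes with 1 exon, where 82.1% to 84.1% of low values lay within 0.15 of a whole fragment, so it is approximate. Transcript lengths and GRCh37 coordinates came from GENCODE by symbol, with a length for 89.7% of tested rows. Length offsets removed a spline with 5 degrees of freedom per library. Promoters came from RefSeq on GRCh38.p14, and no coordinate was converted between builds.

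The members, the pathway lists and the rules were chosen with earlier results of these data known. Of each list, up to 4 called genes with the lowest p were named, or the 2 with the highest mean where none was called, besides MYC and rows named after a member. METTL16, EIF5A, OAT, MAT1A, BHMT and BHMT2 are named outside this rule. Of the genes the rule selects, 1 of the methionine cycle list is not reported here by name, but stays in the counts. Alternatives were other scalings, pseudocounts and filters, length offsets, a replicate block, a fit without the variance trend and leaving out each library.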

Additional observations from a re-analysis of the deposited data

Results flagged for a closer look

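Rows with no gene name, which no comparison used, held 3.53% of the FPKM total in shLDHA library 2, above the 0.431% and 0.361% in the shGFP libraries. In shLDHA library 1 the share was 0.440%. The part of these rows in the lower deposited values of SRM and AHCY in shLDHA library 2 was not tested.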

How the results depend on the processing

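MAT2A, ODC1 and SAT1 kept their direction and their call under every alternative run except without shGFP library 1 or 2, where limma called no gene at all. With leave-one-out fits the log2 fold changes spanned -2.75 to -2.52 for MAT2A, -1.71 to -1.66 for ODC1, 1.26 to 1.32 for SAT1, -0.66 to -0.47 for AZIN1, -0.83 to -0.31 for AMD1, 0.40 to 0.60 for AHCY, 0.36 to 0.46 for SMOX, -0.12 to 0.19 for SRM, -0.30 to 0.04 for MAT2B and 0.09 to 0.13 for SMS. The counts in these fits spanned 0 to 4 members lower and 0 to 4 higher, 0 to 2007 genes lower and 0 to 2882 higher, and 0 to 8 pathway genes lower and 0 to 13 higher. They take their spread from 1 residual degree of freedom, and the lone library is assumed to vary like the pair.

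As deposited, where the median of all genes lay at -0.33, AHCY (0.16) and SMOX (0.071) lost their calls, AMD1 (-0.91) gained one, 1 member was higher, 3114 genes were lower and 904 higher, and 10 pathway genes were lower and 7 higher. In TPM, with a median of -0.48, AHCY (0.0054) lost its call, SMOX (-0.084), SRM (-0.46) and SMS (-0.38) changed sign, and MAT2B (-0.62), AMD1 (-1.06) and SMS gained a call as lower. There 6 members were lower and 1 higher, 4603 genes lower and 708 higher, and 14 pathway genes lower and 6 higher. Length offsets left 1 member higher, with AHCY (0.35) and SMOX (0.26) not called. With no filter on low values AHCY (0.50) lost its call and 998 genes were lower. Without the variance trend AHCY (0.50), SMOX (0.41) and AZIN1 (-0.57, limma adjusted p = 0.0501) lost their calls, leaving 1 member higher. The cause was not tested. With the replicate block, 3 members were lower and 3 higher, SMOX at 0.41, with 1291 genes lower and 2223 higher, and the pathway genes MTR and ENOPH1 lost their calls. The numbers are shared only as labels, and deviations of libraries with the same number correlated at 0.118 across genes.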
